A study of Mus musculus with 8 samples.

Results

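Matricellular genes encode secreted proteins that sit in the extracellular matrix and signal to cells without forming its main scaffold. The 10 described here are the thrombospondin genes Thbs1, Thbs2 and Thbs3, the CCN genes Ccn1 to Ccn5, the tenascin gene Tnc and the periostin gene Postn. They were taken by symbol from the count table, and all 10 were found among 55558 Ensembl genes. Their levels were measured by RNA-seq in 3 libraries each of the mouse kidney lines mK3 and mK4, and open chromatin by ATAC-seq, which marks accessible DNA with a transposase, in 1 library of each line. Per the labels, mK3 holds metanephric mesenchyme cells that were not induced and mK4 metanephric mesenchyme cells differentiated towards epithelium. Both lines are labelled wild type and untreated and were grown in the same medium with serum. The metanephric mesenchyme is the embryonic tissue from which nephrons form. The labels do not say whether a line is 1 clone or whether separate cultures gave its 3 libraries. The p-values therefore measure library-to-library spread alone, and this may be technical.

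Thrombospondins bind matrix proteins, growth factors and cell surface receptors such as CD36, CD47 and integrins. CCN proteins are built from shared modules and signal mainly through integrins and heparan sulphate proteoglycans, and Ccn1 and Ccn2 are widely used readouts of YAP-TEAD and TGF-beta signalling. Tenascin-C and periostin are produced by fibroblasts and mesenchyme during development and repair, and periostin is known for a role in collagen cross-linking.

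Library totals were 137559391 to 152952351 counts, of which Ensembl genes took 133899125 to 146187601. Levels are given as CPM (counts scaled to a common library size), as mean ± SD with n = 3 libraries per line. They are not corrected for gene length, so levels of different genes were not compared. Calls are those of edgeR's quasi-likelihood test over 20405 genes at a Benjamini-Hochberg adjusted p under 0.05. The labelled cell types were checked against marker lists. The 10 metanephric mesenchyme markers summed to 88.3 to 485 CPM in the mK3 libraries and 216 to 322 CPM in the mK4 libraries, with 3 called higher in mK4 and 2 lower. Hoxd11 was at 0 in all 6 libraries. The upper end in mK3 came from Hoxa11 in replicate 2, at 449 CPM against 53.2 and 51.9 CPM in the other mK3 libraries. Hoxa11 was uneven in mK4 too, at 4.645, 5.248 and 49.13 CPM. With this gene left out of all 6 libraries after its values were seen, the sums were 35.31, 35.22 and 36.4 CPM in mK3. In mK4 they were then 211.5, 226.2 and 273.4 CPM. In the mK4 libraries Eya1 alone added 159.5, 179.5 and 220.5 CPM to the sums. The called markers split: Eya1, Pax2 and Sall1 were higher in mK4, Pax2 and Sall1 being at 0 in every mK3 library. Osr1 and Six2 were lower, Six2 having 59, 15 and 61 counts in mK3 and being at 0 in every mK4 library. These 6 markers were named after their values were seen. The epithelial markers Cldn4, Cldn7 and Krt18 were at 0 in all 6 libraries, and the 8 epithelial markers together reached at most 2.46 CPM in an mK3 library and 0.623 CPM in an mK4 library. The 8 leukocyte markers together stayed at or below 0.839 CPM and the 8 endothelial markers at or below 8.17 CPM in every library. The endothelial markers differed between the lines, however. Cdh5 was at 0 in every mK3 library and called higher in mK4, at 7.35 ± 0.402 CPM. Kdr and Tek were called lower and were at 0 in every mK4 library. These 3 were also named after their values were seen.

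Of the 10 genes, 7 were lower in mK4, 1 (Thbs3) was higher, and Ccn1 and Ccn4 did not pass the test. Over all tested genes 19.5% were called lower and 20.8% higher, 40.3% in all. Each of the 7 was at least 2-fold lower and Thbs3 at least 2-fold higher, which held for 10.2% and 13.2% of all tested genes. The median log2 fold change was -2.93 for the 10 genes and 0.02 for all tested genes, with genes at 0 in every library of a line set at their bound. The libraries of the lines did not overlap for 9 of the 10 genes, Ccn4 being the exception, against 56.1% of all tested genes. Summed over the 10 genes, the level was 6349 ± 244 CPM in mK3 and 658 ± 11.2 CPM in mK4. Without Thbs2 the sums were 3585 ± 144 and 658 ± 11.3 CPM. Without Thbs2 and Tnc they were 1773 ± 46.7 and 195 ± 18.7 CPM, so the mK4 sum depended on Tnc. In bulk RNA, fewer cells expressing a gene and less RNA per cell cannot be told apart.

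**Figure D1:**
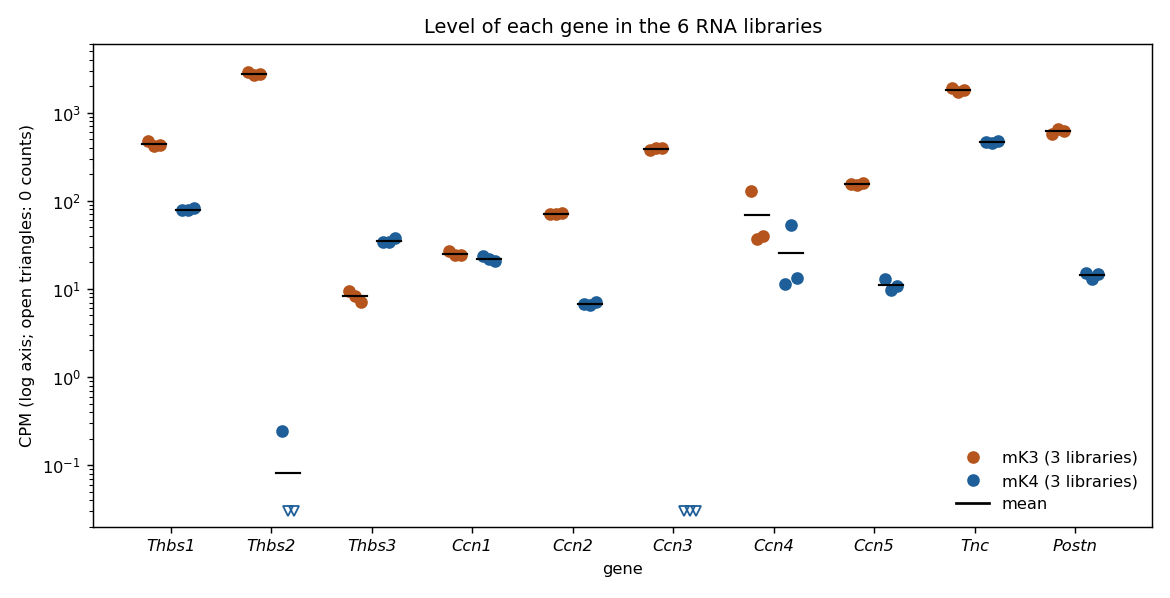
CPM of each gene in every RNA library on a log axis, with mK3 in orange, mK4 in blue, black bars for the mean of 3 libraries and open triangles for libraries at 0 counts. The points of the lines are apart for 9 genes, with Thbs3 alone higher in mK4, and they overlap for Ccn4.

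The thrombospondins did not move together: Thbs2 was nearly absent from mK4, Thbs1 fell and Thbs3 rose. Thbs2 encodes a secreted glycoprotein that restrains angiogenesis and shapes collagen fibrils. Its read counts were 413247, 355324 and 339169 in mK3 against 33, 0 and 0 in mK4. All mK4 counts thus came from replicate 1. The means were 2764 ± 99.7 CPM and 0.0806 ± 0.14 CPM, a log2 fold change of -15.12 (SE 1.18, edgeR adjusted p = 0.000221). Over all libraries the fall was 35690-fold. Without mK4 replicate 1, Thbs2 was at 0 in mK4 and at least 138300-fold lower against a floor of 3 counts per library. That bound leaves out the only mK4 library with counts and exceeds the fold over all libraries. It is therefore no lower limit for the line. Such bounds hold only if a listed 0 stands for no more than 3 counts, which is uncertain, since Ccn6 had 104, 90 and 0 counts in the replicates of mK3.

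The Thbs2 gene spans bases 14665500 to 14694262 of chromosome 17 (GRCm38.p6, which is mm10) on the minus strand. A peak of open chromatin was listed over its start in mK3 and none within 1 kb of its start in mK4. The RefSeq promoter, chr17:14694213-14694512 (minus strand, 250 bases before the start site to 50 after), is shown because this peak, chr17:14693979-14694433, covers most of it. The capitals mark TTTATA, which is TATAAA read on the opposite strand, at positions -126 to -121 from the start site.
Thbs2 promoter: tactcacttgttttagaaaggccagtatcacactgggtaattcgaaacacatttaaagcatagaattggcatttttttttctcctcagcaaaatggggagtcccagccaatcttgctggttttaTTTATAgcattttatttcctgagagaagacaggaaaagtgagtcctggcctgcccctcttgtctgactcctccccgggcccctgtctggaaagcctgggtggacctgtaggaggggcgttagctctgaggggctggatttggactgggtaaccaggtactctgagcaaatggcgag

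Thbs1, the most studied thrombospondin and an activator of latent TGF-beta, had 68508, 54787 and 53117 counts in mK3 against 10638, 11925 and 12276 in mK4. Every mK3 library was above every mK4 library. The means were 440 ± 33.0 and 79.4 ± 2.12 CPM, 5.54-fold lower in mK4 (log2 fold change -2.47, SE 0.08, edgeR adjusted p = 1.16e-05). Thbs3, which belongs to the other structural subgroup of thrombospondins and is best known from cartilage and bone, went the other way. It had 1358, 1108 and 892 counts in mK3 against 4680, 5225 and 5622 in mK4, with no overlap. The means were 8.34 ± 1.13 and 35.4 ± 1.82 CPM, 4.24-fold higher in mK4 (log2 fold change 2.08, SE 0.13, edgeR adjusted p = 0.000101). Thbs4, which belongs to the same subgroup as Thbs3, was at 0 in all 6 libraries.

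The 5 CCN genes split into 3 that fell, Ccn2, Ccn3 and Ccn5, and 2 that did not pass the test, Ccn1 and Ccn4. Ccn3, formerly Nov, encodes a CCN protein often linked to restraint of growth. It had 54463, 52468 and 48941 counts in mK3 and 0 in every mK4 library, 390 ± 9.45 CPM against none. It was at least 17740-fold lower in mK4 against the floor of 3 counts per library (edgeR adjusted p = 7.55e-06).

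Ccn2, the connective tissue growth factor gene, had 10216, 9331 and 8896 counts in mK3 against 919, 989 and 1076 in mK4. Scaled to library size, the 3 mK3 libraries stood within 2 CPM of each other, at 71.1, 70.5 and 71.6 CPM. The mK4 libraries stood at 6.73, 6.50 and 7.17 CPM. The fall was 10.5-fold (log2 fold change -3.39, SE 0.09, edgeR adjusted p = 7.25e-06). Ccn5, whose protein lacks the carboxy-terminal module of the other CCN proteins, had 22253, 19891 and 19592 counts in mK3 against 1774, 1488 and 1616 in mK4. The means were 154 ± 3.77 and 11.2 ± 1.65 CPM, 13.8-fold lower (log2 fold change -3.79, SE 0.13, edgeR adjusted p = 1.53e-05).

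Ccn1, formerly Cyr61, is like Ccn2 an early response gene that promotes adhesion and migration. It had 3836, 3195 and 2972 counts in mK3 against 3232, 3317 and 3112 in mK4. The scaled levels were 26.7, 24.1 and 23.9 CPM against 23.7, 21.8 and 20.7 CPM, so the groups did not overlap but lay next to each other. The log2 fold change was -0.18 (SE 0.10, edgeR adjusted p = 0.225) and stayed between -0.23 and -0.07 over 12 alternatives, in none of which it was called. The gene spans bases 145646971 to 145649985 of chromosome 3 on the minus strand, and a peak was listed over its start in both lines. Its RefSeq promoter (chr3:145649936-145650235, minus strand, GRCm38.p6) is shown because Ccn1 did not pass the test in RNA and had a start peak in both lines. Of the 4 motifs searched, it held 2, in capitals. CATTCC, the reverse complement of the TEAD letters GGAATG, lies at positions -103 to -98 from the start site, and TATAAA at -25 to -20.
Ccn1 promoter: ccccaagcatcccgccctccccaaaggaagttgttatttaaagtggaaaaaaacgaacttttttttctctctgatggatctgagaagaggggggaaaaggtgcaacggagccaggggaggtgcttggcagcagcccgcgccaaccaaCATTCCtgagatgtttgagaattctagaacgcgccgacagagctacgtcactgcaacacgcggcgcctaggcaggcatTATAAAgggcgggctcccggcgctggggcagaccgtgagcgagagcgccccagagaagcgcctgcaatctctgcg

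Promoter sequences were at hand for 5 of the 10 genes (Thbs2, Thbs3, Ccn1, Tnc and Postn). GGAATG, searched on both strands, was found in Ccn1 alone among these, and in 14.7% of 32851 RefSeq promoters of the same length. TATAAA, on either strand, was found in Ccn1, in Thbs2, in both promoters of Tnc and in 1 of the 2 of Postn, and in 13.6% of all promoters. That share counts promoters, not genes, wherever the letters lie. The letters began at -25 in Ccn1 and -26 in Postn, but at -126 in Thbs2 and at -205 or -126 in Tnc. The AP-1 letters TGANTCA (7.81% of all promoters) and the CArG box bound by SRF (1.63%) were found in none of the 5, which says only that these letters are not in the windows searched.

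Ccn4, formerly Wisp1, encodes a Wnt-induced CCN protein, and its libraries disagreed within each line. It had 18583, 4827 and 4886 counts in mK3 against 1540, 7985 and 2013 in mK4. Replicate 1 of mK3 and replicate 2 of mK4 stood apart, the latter above the other mK3 libraries on the CPM scale (52.5 against 36.5 and 39.3 CPM). The means were 68.4 ± 52.8 and 25.7 ± 23.2 CPM (log2 fold change -1.41, SE 0.79, edgeR adjusted p = 0.209). Without mK4 replicate 2, Ccn4 was called lower (log2 fold change -2.46, adjusted p = 0.0467), and without mK3 replicate 1 the log2 fold change was -0.56 (adjusted p = 0.61, range over 12 alternatives 0.0467 to 0.61). The highest Ccn4 library was 3.55 times the lowest in mK3 and 4.65 times in mK4. Among 8017 protein-coding genes with a mean of at least 10 CPM and no library at 0, the median ratio was 1.198 in mK3 and 1.172 in mK4, and 22 genes, Ccn4 included, spread at least as widely as Ccn4 in both lines. In 3 of the 22, again counting Ccn4, the same pair of libraries was highest. For the other genes of the 10, the coefficient of variation was 0.795% to 13.6% in mK3 and, leaving out Thbs2 and Ccn3, 1.81% to 14.8% in mK4, against 77.2% and 90.1% for Ccn4.

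Tnc and Postn both fell, to different depths. Tnc, a large adhesion-modulating glycoprotein gene, had 275425, 225836 and 225127 counts in mK3 against 63487, 69040 and 70513 in mK4. Every mK3 library was above every mK4 library, and the means were 1812 ± 105 and 463 ± 8.38 CPM. The fall was 3.92-fold (log2 fold change -1.97, SE 0.06, edgeR adjusted p = 1.16e-05). Postn had 83176, 86537 and 76624 counts in mK3 against 2078, 1992 and 2214 in mK4. The means were 617 ± 37.5 and 14.4 ± 1.12 CPM, 43.0-fold lower (log2 fold change -5.42, SE 0.10, edgeR adjusted p = 4.12e-06).

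**Figure D2:**
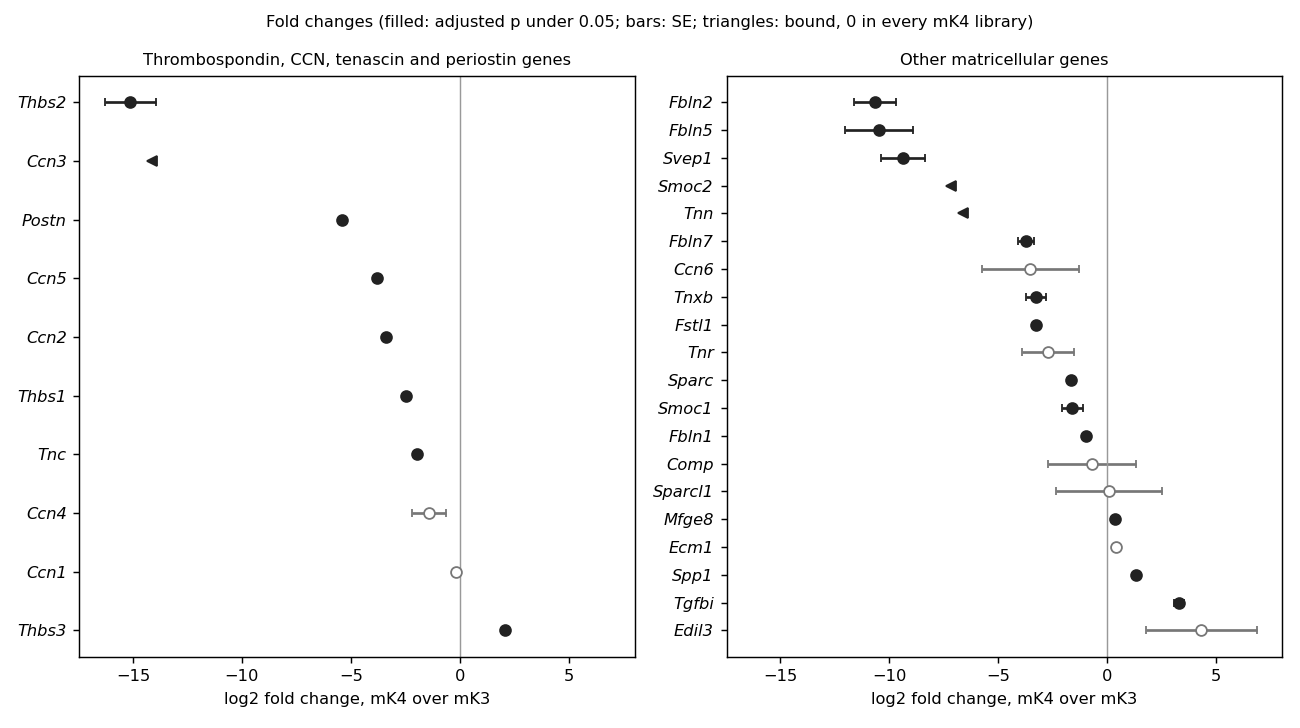
Log2 fold changes of mK4 over mK3 with SE bars for the 10 genes (left) and for the 20 tested of 25 other matricellular genes (right), with filled symbols for genes called at an adjusted p under 0.05 and triangles for bounds. On the left 7 called genes lie below 0 and Thbs3 above it, and on the right 11 called genes lie below 0 and 3 above.

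Among 25 other matricellular genes, 20 were tested. Of these 11 were lower in mK4 and 3 were higher, against 19.5% and 20.8% of all tested genes, with a median log2 fold change of -2.18 against 0.02 for all tested genes. Fstl1, which encodes a secreted follistatin-like protein, fell from 3588 ± 75.7 to 380 ± 3.61 CPM (edgeR adjusted p = 2.11e-06). Sparc, a collagen-binding protein gene, fell from 850 ± 134 to 270 ± 14.4 CPM (edgeR adjusted p = 0.000184). The 4 fibulin genes on the list, named after their values were seen, were all called lower. Fbln1 stood at 146 ± 6.23 and 74.5 ± 4.17 CPM and Fbln7 at 56.9 ± 2.98 and 4.35 ± 2.28 CPM, while Fbln2 and Fbln5 were at 0 in 1 and in 2 of the mK4 libraries. In the other direction, Spp1, the osteopontin gene, rose from 152 ± 9.70 to 379 ± 19.7 CPM (edgeR adjusted p = 6.44e-05). Tgfbi, which encodes a fasciclin-domain protein related to periostin, rose from 3.12 ± 0.903 to 31.3 ± 2.53 CPM (edgeR adjusted p = 0.00016), opposite in direction to Postn. Cthrc1, Spock3 and Thbs4 were at 0 in all 6 libraries. Under a filter of 1 CPM in each of the 6 libraries, which removes genes near 0 in mK4, 5 of this list were lower.

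Genes for the receptors of these proteins moved both ways, with 8 of 22 tested higher in mK4 and 6 lower, and a median log2 fold change of 0.05. Over all tested genes 20.8% were higher and 19.5% lower. Egfr, to which tenascin-C repeats can bind, rose from 248 ± 4.02 to 661 ± 3.55 CPM (edgeR adjusted p = 1.52e-05). Itga3, an integrin subunit gene, rose from 22.9 ± 2.54 to 136 ± 5.59 CPM (edgeR adjusted p = 2.55e-05). Itga5, which encodes the fibronectin receptor subunit, fell from 170 ± 10.0 to 55.8 ± 4.57 CPM (edgeR adjusted p = 6.26e-05). Lrp6, a Wnt co-receptor gene whose product binds CCN2, fell from 424 ± 2.22 to 290 ± 20.4 CPM (edgeR adjusted p = 0.00115). Itga9, an integrin subunit for tenascin-C and osteopontin, was at 0 in mK3 and reached 33.8 ± 1.44 CPM in mK4. Against the floor this was at least 1400-fold higher. The thrombospondin receptor gene Cd47 stood at 332 ± 56.4 and 304 ± 63.8 CPM (edgeR adjusted p = 0.645), and Cd36 had 239, 0 and 0 counts in mK3 against 1571, 1315 and 1510 in mK4 (edgeR adjusted p = 0.127). Itga9, Cd47 and Cd36 fall outside the rule for named genes and were named after their values were seen.

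Of 23 tested regulators in the TGF-beta, YAP-TEAD and SRF pathways, 12 were lower in mK4 and 7 higher, with a median log2 fold change of -0.23. The shares over all tested genes were 19.5% lower and 20.8% higher. Lats2, a Hippo kinase gene, fell from 128 ± 9.70 to 44.6 ± 1.98 CPM (edgeR adjusted p = 6.15e-05), and the TGF-beta co-receptor gene Tgfbr3 from 776 ± 48.8 to 442 ± 15.2 CPM (edgeR adjusted p = 0.000232). The ligand genes Tgfb3 and Tgfb1 rose from 5.03 ± 0.432 to 18.9 ± 1.82 CPM and from 10.6 ± 1.08 to 21.0 ± 0.98 CPM (edgeR adjusted p = 0.00016 and 0.00122). The ligand gene Tgfb2 went the other way, from 18.15 ± 2.142 to 6.17 ± 0.5413 CPM (edgeR adjusted p = 0.000411). Tgfb2 is outside the rule for named genes and was named after its values were seen. The count of 7 fell to 4 without mK3 replicate 1 or 2 or without mK4 replicate 1 or 3.

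Of 19 tested genes other than Ccn1 and Ccn2 that are often read as YAP-TEAD targets, 8 were lower in mK4 and 5 higher, with a median of -0.34. Beside the 19.5% lower and 20.8% higher over all tested genes, the count of higher genes was near the background. Ankrd1, which like Ccn1 and Ccn2 is among the most used of these, fell from 92.6 ± 3.82 to 23.1 ± 1.96 CPM (edgeR adjusted p = 3.69e-05). Crim1, a transmembrane protein gene, fell from 956 ± 26.5 to 435 ± 20.4 CPM (edgeR adjusted p = 4.71e-05). Arhgef17 rose from 40.8 ± 3.90 to 145 ± 9.14 CPM and Foxf2 from 0.709 ± 0.0128 to 4.09 ± 1.08 CPM (edgeR adjusted p = 5.62e-05 and 0.000705). Lats2 and Tgfb2 stand on this list and on the previous one.

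Markers of other mesenchymal states moved with the fall of the 7 genes. The 6 smooth muscle and myofibroblast markers, of which 4 were called lower and none was at 0 in all libraries, summed to 594 to 678 CPM in the mK3 libraries and 2.12 to 3.38 CPM in the mK4 libraries. The 6 stromal markers, of which 4 were called lower and 1 higher, summed to 771 to 857 and 236 to 255 CPM, and Tcf21 was at 0 in all 6. Their part in the fall of the 7 genes was not tested.

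The protein-coding genes most like Thbs2 and Ccn2 over the 6 libraries were sought by the root mean square difference of log2 CPM after each gene's mean was subtracted, among 13839 tested genes. For Ccn2 these were Fstl1, at a difference of 0.085, Ephx1, an epoxide hydrolase gene, at 0.095, and the protocadherin-related gene Fat4 at 0.096. Fat4 fell from 264 ± 10.1 to 23.0 ± 0.576 CPM and Ephx1 from 151 ± 2.89 to 15.4 ± 2.36 CPM. For Thbs2 they were the nidogen gene Nid1, the collectin gene Colec12 and Ccn3, at differences of 2.02, 2.04 and 2.06. All 3 were at 0 in every mK4 library, and a likeness between genes near 0 depends on the 0.5 counts added before taking logs.

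Open chromatin was compared as peaks listed at the gene starts, with no test since each line had 1 library. For Thbs1, Ccn2, Ccn3, Ccn4 and Ccn5 the strand was not given, so a peak at either end of the gene was accepted, and every one found was at the end with the lower coordinate. Tnc and Postn have 2 RefSeq start sites each, and their positions are given from the outer one. Within 1 kb, a peak was listed in mK3 at all 10 genes and in mK4 at 8, the exceptions being Thbs2 and Ccn3. Over 16625 tested genes with a position, 54.3% had a peak within 1 kb of either end in mK3 and 60.0% in mK4, while 4.10% had one in mK3 and none in mK4. The reverse, a peak in mK4 and none in mK3, held for 9.82% of them and for 0 of the 10 genes. The mK4 list was the longer, with 34710 peaks against 22477. Fold enrichments over background and -log10 q are the authors' own values for each peak.

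At Thbs2, the mK3 start peak was 5.70-fold enriched (-log10 q 21.2), above 77.2% of the peaks in its list. Within 20 kb of the gene, mK3 had 2 peaks and mK4 had 1, and none overlapped between the lines. At Ccn3 (chromosome 15, bases 54745910 to 54753762), a single mK3 peak, chr15:54745288-54745868, was 4.64-fold enriched (-log10 q 16.1), and mK4 had no peak within 20 kb. These are also the genes at or near 0 in mK4 RNA. Of all tested genes with an mK3 end peak, 7.55% had none in mK4. This share was 28.2% among genes called at least 2-fold lower in mK4 and 82.3% among the 79 with an end peak that were called lower and at 0 in every mK4 library.

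The other genes that fell had a peak listed in mK4 at the start, or for Thbs1, Ccn2 and Ccn5 at the lower-coordinate end. For Postn this held at the outer start alone. Among peaks with -log10 q of at least 10, however, Ccn5 had one in mK3 (11.2) and none in mK4 (7.27), and Tnc had none in either line (9.22 and 6.39). Ccn2 (chromosome 10, bases 24595442 to 24598683) had overlapping peaks at that end in both lines, 4.55-fold enriched in mK3 and 7.39-fold in mK4, above 58.1% and 83.2% of the peaks in the respective lists. A further peak inside the gene, chr10:24596723-24596988, was listed in mK3 alone. Ccn5 (chromosome 2, bases 163820752 to 163833146) had 3 peaks within 20 kb in each line, and all 3 overlapped, although its RNA fell 13.8-fold. Postn (chromosome 3, bases 54359267 to 54391041, plus strand) had 1 peak within 20 kb in each line, at positions -749 to -253 from the start in mK3 and -767 to -494 in mK4. These peaks overlapped while the RNA fell 43.0-fold. The promoter at the inner start site of Postn, chr3:54360857-54361156, is the one that holds TATAAA. Neither line had a peak over it or within 1 kb of it, so the lists do not show that promoter as open. Presence on a list does not give the amount of open chromatin, and enrichments from lists called separately were not compared between the lines.

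Tnc (chromosome 4, bases 63959785 to 64047015, minus strand) had overlapping start peaks in both lines, chr4:64046828-64047158 in mK3 and chr4:64046761-64047166 in mK4. Its promoter at the outer of 2 RefSeq start sites (chr4:64046966-64047265, minus strand, GRCm38.p6) is shown as one that stayed listed as open while the RNA fell 3.92-fold. The capitals mark TATAAA, at positions -126 to -121 from that start.
Tnc promoter: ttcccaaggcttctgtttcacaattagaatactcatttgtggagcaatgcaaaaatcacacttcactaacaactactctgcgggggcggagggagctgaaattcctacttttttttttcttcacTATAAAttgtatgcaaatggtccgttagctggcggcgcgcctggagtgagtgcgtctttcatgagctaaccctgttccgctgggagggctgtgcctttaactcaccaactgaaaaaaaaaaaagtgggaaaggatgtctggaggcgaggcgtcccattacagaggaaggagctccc

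Thbs3, the gene that rose (chromosome 3, bases 89215180 to 89226841, plus strand), had a shared peak before its start and a further one listed in mK4 alone, 657 to 992 bases after it. The latter was weak for its list, at 2.83-fold enrichment and above 3.43% of the mK4 peaks. The shared peak lay at positions -1242 to -567 from the Thbs3 start in mK3 and -1377 to -646 in mK4. Its mK4 form reached into the neighbouring gene Mtx1, which ends at base 89213907. Neither line had a peak within 500 bp of the Thbs3 start. Within 20 kb, Thbs3 had 5 peaks in mK3, each with an mK4 partner, and 7 in mK4. Thbs1 (chromosome 2, bases 118111876 to 118127133) had 2 shared peaks within 2 kb before its lower-coordinate end and 1 more in mK4 alone (2.45-fold), although its RNA fell. At Ccn4 (chromosome 15, bases 66891369 to 66923201), all 5 mK3 peaks within 20 kb had a partner among the 6 of mK4.

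**Figure D3:**
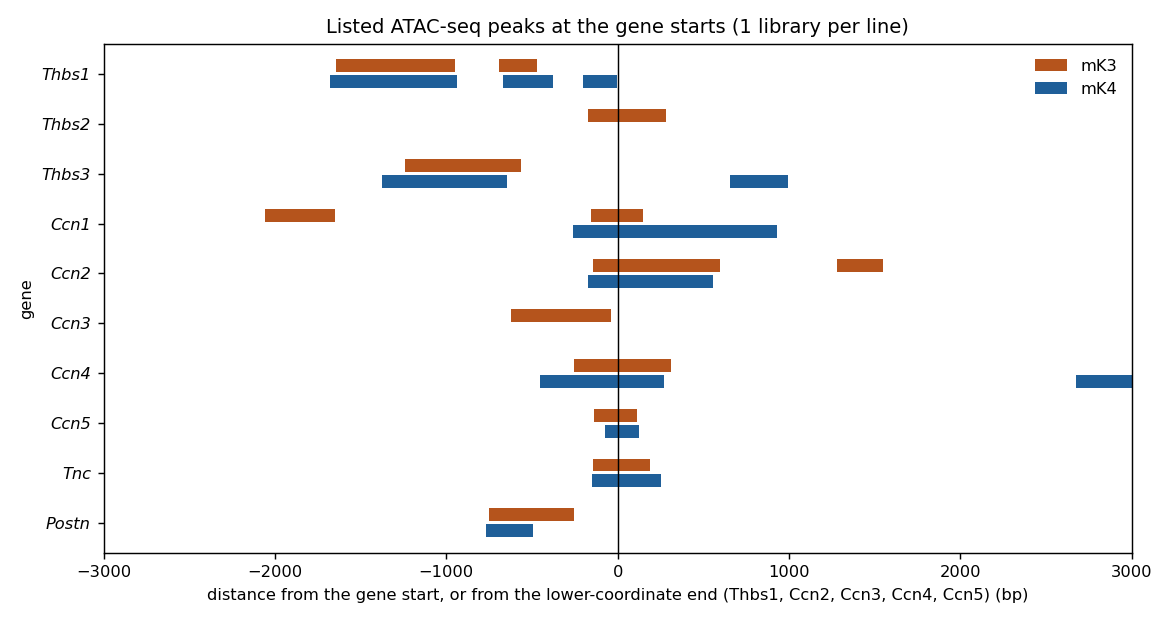
Peaks listed within 3 kb of each gene's start, or of its lower-coordinate end where the strand was not given, in bases from that point, with mK3 in orange above and mK4 in blue below. Thbs2 and Ccn3 have a peak at 0 or just before it in mK3 only, and the other 8 genes have peaks in both lines.

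Genes next to the 10 were also read. By a rule added after the data were examined, every RefSeq gene overlapping or within 3 kb of them was taken, which gave 10 neighbours, 7 of which were matched in the count table and 6 tested. The lncRNA gene Gm13986 ends 674 bases from Thbs1 and fell from 325 ± 89.4 to 66.8 ± 12.7 CPM, a log2 fold change of -2.28 (SE 0.25) beside -2.47 for Thbs1. The lncRNA gene Gm15270 overlaps Ccn2 by 362 bases and changed by -3.25 (SE 0.38) beside -3.39. The lncRNA gene 8030451A03Rik overlaps Tnc by 62285 bases and changed by -2.03 (SE 0.18) beside -1.97. Mtx1, a mitochondrial import gene 1273 bases from Thbs3, rose from 4.25 ± 0.645 to 15.9 ± 2.09 CPM, by 1.91 (SE 0.18) beside 2.08. The edgeR adjusted p of these 4 was 0.00108 (Gm15270) or less.

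The other two tested neighbours did not pass the test. Gm17501, an lncRNA gene 92 bases from Ccn1, changed by -0.30 (SE 0.29, edgeR adjusted p = 0.472) beside -0.18 for Ccn1, and Muc1 near Thbs3 had at most 82 counts in a library. Mir92b near Thbs3 had too few counts to be tested. In the 4 pairs with both genes called, the directions were the same and the log2 fold changes differed by under 0.2. Among 1199 pairs of tested genes within 3 kb with both called, 81.7% had the same direction and 19.2% differed by under 0.2. Like the rule for neighbours, the limit of 0.2 was not set before the data were examined. The share below it therefore does not measure how unusual the 4 pairs are. The libraries were strand-specific per the labels, but the sources used here do not say whether counting used the strand, so for Gm15270 and 8030451A03Rik reads of the overlapping gene may be included.

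**Figure D4:**
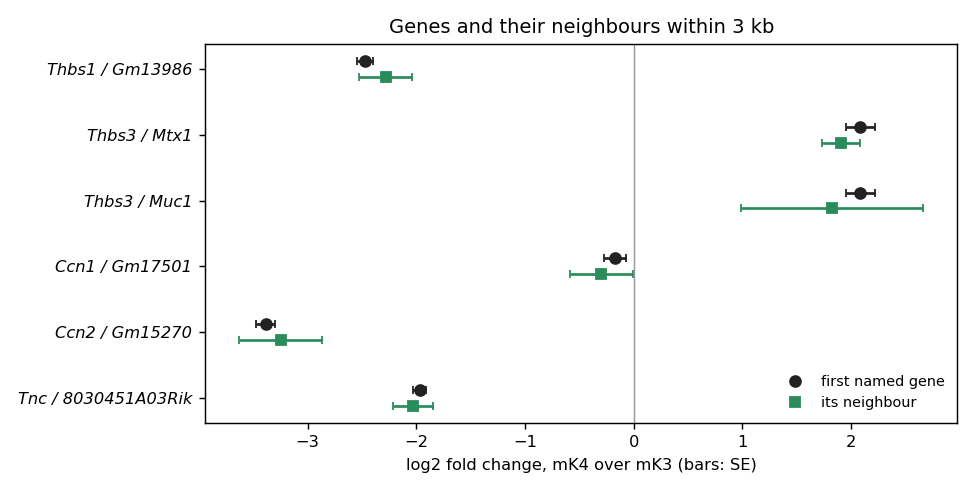
Log2 fold change of mK4 over mK3 with SE bars for 5 of the genes (black circles) and their tested neighbours within 3 kb (green squares), 1 pair per row, Thbs3 standing in 2 rows. Each square lies close to the circle of its pair, from -3.25 for Gm15270 beside Ccn2 to 1.91 for Mtx1 beside Thbs3.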

How the data were processed

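RNA-seq covered 3 libraries each of mK3 and mK4 and ATAC-seq 1 library each. The deposited table holds whole-number counts per feature, not normalized. The submitters' processing notes name the build mm10 and the tools MACS3, deepTools, bedtools, SAMtools, Bowtie2, HTSeq 2.0.2 and STAR 2.7.10a. The sources used here do not give their roles or settings. The deposited peak lists give, per the column order of their format, the authors' fold enrichment (a ratio) and -log10 q for each peak.

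Ensembl genes were fitted with edgeR 4.0.16 in R 4.3.3 (filterByExpr, TMM, robust glmQLFit and glmQLFTest), with P-values adjusted over all 20405 tested genes. The SE was taken from the fold change and the F statistic. All 10 genes passed the filter on low counts. For a gene with no counts in a line, the fold was bounded by a floor of 3 counts per library, which covers counting error only. The highest floor was 0.0242 CPM among mK3 libraries and 0.022 CPM among mK4 libraries. Replicates of a line differed by more than sampling noise. Alternatives were DESeq2 1.42.0, no TMM, all features in 1 fit, other filters, each library left out, and a replicate block. On simulated counts for this comparison (19736 genes), 100 genes were changed 2-fold and 100 were changed 4-fold. Of these, 29% and 75% were recovered, and 4 of 19536 unchanged genes were called. In the measured libraries 40.3% of tested genes were called, and recovery with so large a share of changed genes was not tested.

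The 10 genes, the lists and the motifs were chosen with earlier results of these data known. Named genes were the 10, up to 2 called genes per list and direction with the smallest adjusted p, 3 genes most like Thbs2 and Ccn2, and markers at 0 in all libraries. Peaks on the autosomes and sex chromosomes were matched by at least 1 bp in Python 3.11.15 with pandas 2.3.3. Positions and promoters came from RefSeq for GRCm38.p6, which gave a position for all 10 genes and a promoter for 5, and a position for 16625 of 20405 tested genes (81.5%).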

Additional observations from a re-analysis of the deposited data

How the results depend on the processing

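The counts of 7 genes lower and 1 higher were kept with DESeq2, without TMM scaling, with all features in 1 fit, without a filter and with the replicate block. Without mK4 replicate 2 the count of lower genes was 8, Ccn4 being added, and with a filter of 1 CPM in all 6 libraries it was 5, since Thbs2 and Ccn3 could not be tested. Over the alternatives, 117 of 118 values for the 10 genes and all 308 for the other named genes kept their direction and their side of the threshold. With the filter of 1 CPM, 5 other matricellular genes were lower (11 before) and 3 genes read as YAP-TEAD targets were higher (5 before). With 1 library left out, 4 to 6 pathway regulators were higher (7 before). Without TMM scaling the median log2 fold change of all genes moved by 0.107. With the replicate block 3281 genes were higher and 3129 lower, against 4237 and 3988. Libraries sharing a number did not deviate together (r of -0.031 to 0.006 over 15039 genes), so the numbers were not taken as pairs, and not every library correlated best with its own number. A start peak was listed at 9 genes in mK3 and 7 in mK4 within 500 bp, where Thbs3 had none in either line. Among peaks with -log10 q of at least 10 the counts were 7 and 6. There Thbs3, Ccn1 and Tnc had none in mK3 and Thbs2, Ccn3, Ccn5 and Tnc none in mK4. With 3 libraries per line and 1 ATAC-seq library, small differences and peak differences cannot be judged.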
